A study of Mus musculus with 8 samples.

Results

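The report describes 10 genes by which astrocytes, the main support glia of the brain, are recognised. They are the filament genes Gfap and Vim, the secreted-protein genes Serpina3n, Lcn2 and Agt, the glutamate transporter genes Slc1a2 and Slc1a3, the channel genes Aqp4 and Gja1, and the metabolic enzyme gene Aldh1l1. They were chosen by symbol and by no threshold on a value, but with earlier results of these data known. The same holds for the gene lists used below. All 10 were found among the 55414 genes of the count table. All 10 also passed the filter on low counts that left 24356 genes for testing.

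Astrocytes take up synaptic glutamate, move water and ions at the endfeet that wrap blood vessels, and are coupled to each other by gap junctions. After injury, inflammation or at the edge of a tumor they become reactive: their filament network thickens and they secrete acute-phase proteins, largely under the control of cytokine receptors that signal through STAT3 and of NF-kB. Reactive cells can also lose part of the homeostatic programme of transporters and channels. Cells of ependymoma, a glial tumor, can themselves express Gfap and Vim, so in bulk tissue these genes do not mark astrocytes alone.

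The tissue came from mice with supratentorial ependymoma driven by the ZFTA-RELA fusion, which joins the gene of a nuclear protein to that of an NF-kB subunit. RNA of brain tumor and of tissue labelled naive brain was sequenced after treatment with MRX-2843, which blocks the kinase receptors MERTK and FLT3, or with vehicle. Mice whose tumor was seen on MRI were assigned at random to MRX-2843, given by gavage at 50 mg/kg each day for 5 days, or to vehicle on the same schedule, and were killed 1 h after the last dose. The 8 libraries form 4 groups of 2: MRX-2843 tumor, vehicle tumor, MRX-2843 naive brain and vehicle naive brain. The labels give the fusion as the genotype and the name of the drug as the cell line of all 8 libraries, naive and vehicle ones included. Whether the naive brain is that of tumor-bearing mice is not stated. Age, strain and the promoter that drives the fusion are not given in the sources used here. The 2 libraries of a group are called duplicates and are not said to come from separate animals, so that p-values measure the spread between these libraries only, which may be technical.

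The libraries held 51150569 to 112938462 counts, so that 3 counts, the limit a count of 0 allows for counting error only, corresponded to 0.0281 to 0.0615 CPM (counts over library totals that were scaled by TMM, a trimmed mean of ratios between libraries, and brought to a common total). Libraries of 1 group were nearly alike, with a correlation of log2 CPM across genes of 0.993 to 0.995. The MRX-2843 tumor libraries resembled vehicle naive brain (0.962 to 0.964) far more than vehicle tumor (0.487 to 0.492), and the vehicle tumor libraries stood apart from all others (0.467 to 0.492). Neuronal marker genes summed to 4107 and 4068 CPM in MRX-2843 tumor, against 515 and 524 CPM in vehicle tumor, 3955 and 4062 CPM in MRX-2843 naive brain and 7019 and 6862 CPM in vehicle naive brain. The proliferation gene Mki67 was at 7.74 and 5.84 CPM in MRX-2843 tumor, 74.3 and 75.1 CPM in vehicle tumor, 1.03 and 1.24 CPM in MRX-2843 naive brain and 1.18 and 1.74 CPM in vehicle naive brain. How much tumor tissue the libraries labelled MRX-2843 tumor hold is not given by the labels, and an effect of the drug on tumor cells and a smaller share of tumor tissue cannot be told apart. Mitochondrially encoded genes took 16.4% to 18.5% of counts in MRX-2843 libraries, 14.7% to 15.1% in vehicle naive brain and 3.26% to 3.37% in vehicle tumor. Ddx3y, on the Y chromosome, was at 0 in all 4 MRX-2843 libraries and at 32.3 to 76.2 CPM in the 4 vehicle libraries, and a number in the column names is 909 for all MRX-2843 libraries and 914 or 915 for vehicle, so that treatment, sex and that number cannot be told apart.

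On GRCm38 (GENCODE M21), Gfap spans 102887336 to 102900912 on the minus strand of chromosome 11, Vim 13573927 to 13582826 on the plus strand of chromosome 2, Serpina3n 104406729 to 104414329 on the plus strand of chromosome 12 and Lcn2 32384633 to 32388252 on the minus strand of chromosome 2. Slc1a2 spans 102658659 to 102790784 on the plus strand of chromosome 2, Slc1a3 8634124 to 8710764 on the minus strand of chromosome 15 and Aldh1l1 90486427 to 90600203 on the plus strand of chromosome 6. Gja1 spans 56377330 to 56402513 on the plus strand of chromosome 10 and Agt 124556534 to 124569706 on the minus strand of chromosome 8. Serpina3n belongs to a cluster of near-identical serpin genes, so the authors' counting could have split its reads, and its level is uncertain to that extent.

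Promoter windows of 300 bases, 250 before and 50 after the annotated start, were available from RefSeq (GRCm38.p6) for 9 of the 10 genes. The windows of the 4 genes that rose together in vehicle tumor and of Agt, which followed another pattern, are shown 5′ to 3′ on the strand of the gene. They are chr11:102897151-102897450 (minus strand) for Gfap, chr2:13574061-13574360 (plus strand) for Vim, chr12:104406458-104406757 (plus strand) for Serpina3n, chr2:32387690-32387989 (minus strand) for Lcn2 and chr8:124569657-124569956 (minus strand) for Agt. Capitals mark matches on either strand to the STAT element TTCNNNGAA, to the NF-kB consensus or to the TATA box TATAAA.
Gfap: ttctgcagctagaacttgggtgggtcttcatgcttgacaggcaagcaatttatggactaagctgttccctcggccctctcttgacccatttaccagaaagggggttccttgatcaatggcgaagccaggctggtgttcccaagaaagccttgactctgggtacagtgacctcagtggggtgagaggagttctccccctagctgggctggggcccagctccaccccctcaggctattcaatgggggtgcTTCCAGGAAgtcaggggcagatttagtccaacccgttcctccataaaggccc
Vim: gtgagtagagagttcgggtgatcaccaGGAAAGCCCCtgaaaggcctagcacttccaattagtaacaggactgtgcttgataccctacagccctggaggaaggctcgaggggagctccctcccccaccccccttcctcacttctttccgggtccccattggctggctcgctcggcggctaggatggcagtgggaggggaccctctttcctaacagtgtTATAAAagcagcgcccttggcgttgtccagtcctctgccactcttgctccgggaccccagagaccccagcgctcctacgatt
Serpina3n: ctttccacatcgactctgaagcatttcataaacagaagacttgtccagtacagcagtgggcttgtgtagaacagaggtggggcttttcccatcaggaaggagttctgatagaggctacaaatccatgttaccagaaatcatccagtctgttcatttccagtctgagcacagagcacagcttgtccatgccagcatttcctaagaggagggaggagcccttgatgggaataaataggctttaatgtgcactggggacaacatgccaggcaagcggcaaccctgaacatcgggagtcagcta
Lcn2: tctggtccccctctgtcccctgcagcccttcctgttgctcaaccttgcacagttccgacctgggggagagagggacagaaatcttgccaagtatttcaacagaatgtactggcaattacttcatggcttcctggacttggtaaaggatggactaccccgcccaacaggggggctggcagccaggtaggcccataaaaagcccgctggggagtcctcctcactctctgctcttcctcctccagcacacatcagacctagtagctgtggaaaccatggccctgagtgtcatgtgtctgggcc
Agt: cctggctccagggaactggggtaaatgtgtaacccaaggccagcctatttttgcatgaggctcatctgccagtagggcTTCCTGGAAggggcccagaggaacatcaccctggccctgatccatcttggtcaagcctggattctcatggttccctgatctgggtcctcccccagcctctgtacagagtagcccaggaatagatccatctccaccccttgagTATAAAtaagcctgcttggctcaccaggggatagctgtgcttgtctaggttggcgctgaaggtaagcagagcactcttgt

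The STAT element was found in 3 of the 9 windows, those of Gfap, Slc1a3 and Agt, against 8.30% of all 32851 promoter windows of the same length. In Gfap it reads TTCCAGGAA and covers the annotated start, from base -2 to base 7. In Agt it reads TTCCTGGAA, from -172 to -164, and in Slc1a3 it reads TTCCAAGAA, from -96 to -88. The NF-kB consensus was found in Vim alone, as GGAAAGCCCC on the minus strand from -223 to -214, against 4.51% of all windows. The TATA box was found in Vim from -32 to -27, in Agt from -30 to -25 and, on the minus strand, in Slc1a3 from -161 to -156, against 13.6% of all windows, and no motif overlapped another. The start that RefSeq gives for Gfap, Vim, Lcn2, Slc1a2 and Aldh1l1 lies inside the span that GENCODE gives, and other starts of these or the remaining genes were not searched.

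In vehicle tumor the reactive genes were far above vehicle naive brain while the chief glutamate transporter was below it. Vehicle tumor against vehicle naive brain asks how astrocyte genes differ in tumor tissue without drug. Of the 10 genes, 6 rose and 3 fell, where 60.1% of all tested genes changed, 29.3% higher and 30.8% lower. The median log2 fold change was 1.48 over the 10 genes and -0.03 over all tested genes. In MRX-2843 tumor each gene but Gja1 had a mean level nearer to vehicle naive brain than to vehicle tumor. Against vehicle tumor, 4 of the 10 rose and 6 fell, where 60.4% of tested genes changed, 30.6% higher and 29.8% lower, with a median of -1.63 over the 10 and 0.03 over all. Against MRX-2843 naive brain, 5 rose and 1 fell, where 24.4% of tested genes changed, 12.4% higher and 11.9% lower, with a median of 0.23 over the 10 and 0.00 over all. In MRX-2843 against vehicle naive brain, 3 rose and 4 fell, where 21.5% of tested genes changed, 9.78% higher and 11.7% lower, with medians of 0.01 and 0.02. The tumor-to-naive difference under MRX-2843 minus that under vehicle, the interaction, passed upward for 3 of the 10 genes and downward for 6, where 51.6% of tested genes passed, 26.3% higher and 25.3% lower. The median interaction was -2.20 over the 10 and 0.02 over all. These comparisons share libraries, so their values are given side by side and are not independent of each other. A change is a Benjamini-Hochberg adjusted p under 0.05 over all tested genes by edgeR's quasi-likelihood test, and log2 fold changes are given with their standard error (SE). In bulk tissue, fewer cells of a type and less RNA per cell cannot be told apart.

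**Figure D1:**
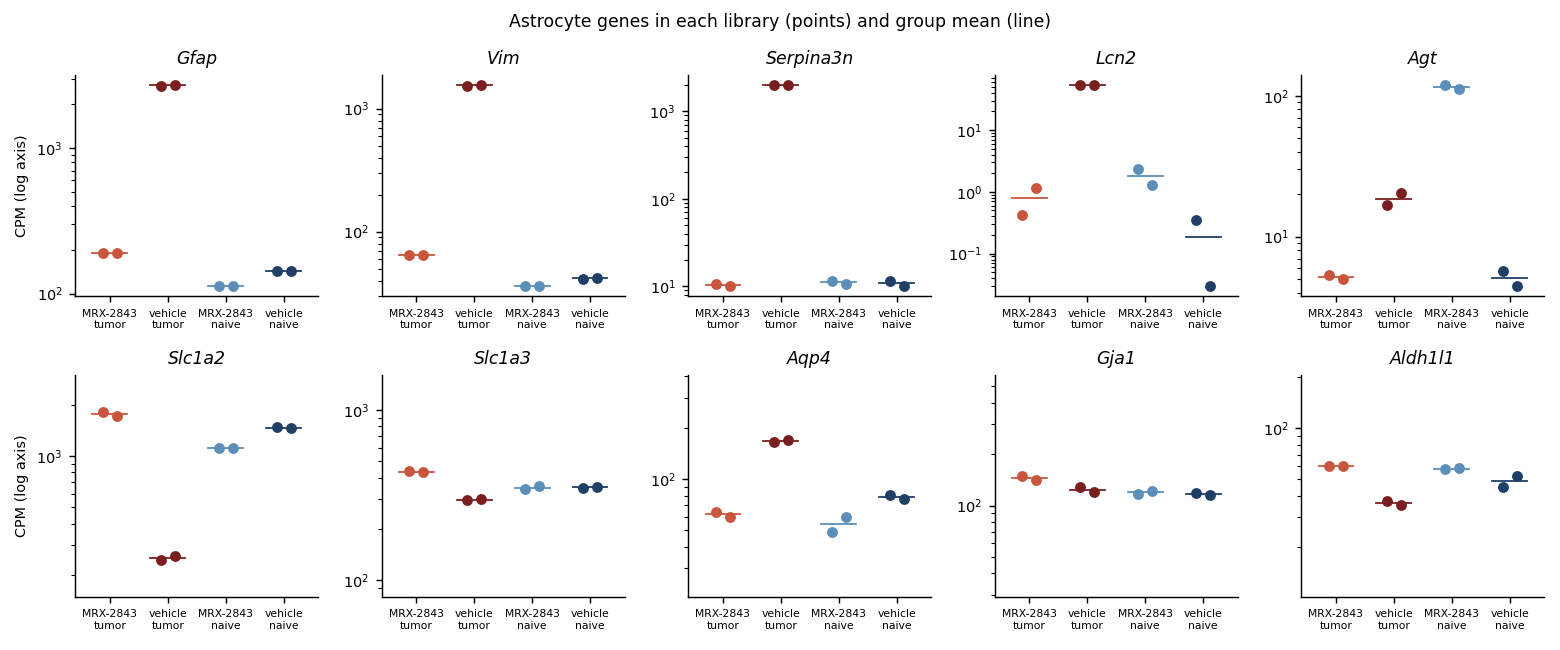
CPM (log axis) of each of the 10 genes in each library (points) with the group mean (line), for MRX-2843 tumor, vehicle tumor, MRX-2843 naive brain and vehicle naive brain from left to right. Gfap, Vim, Serpina3n and Lcn2 stand highest in vehicle tumor, Slc1a2 stands lowest there, Gja1 stays between 115 and 149 CPM in all 8 libraries, and Agt is highest in MRX-2843 naive brain.

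Both intermediate filament genes were highest in vehicle tumor. Gfap, which encodes the filament protein of astrocytes, was at 189 and 190 CPM in MRX-2843 tumor, 2676 and 2735 CPM in vehicle tumor, 113 and 113 CPM in MRX-2843 naive brain and 143 and 144 CPM in vehicle naive brain. No 2 groups overlapped, and vehicle tumor stood alone at the top. Gfap was 18.9-fold higher in vehicle tumor than in vehicle naive brain (log2 4.24 ± 0.05 SE, adjusted p = 1.23e-17). In MRX-2843 tumor it was 14.3-fold lower than in vehicle tumor (log2 -3.83 ± 0.04, adjusted p = 2.56e-17) and still 1.68-fold higher than in MRX-2843 naive brain (log2 0.75 ± 0.04, adjusted p = 1.06e-08). In naive brain it was slightly lower with MRX-2843 than with vehicle (log2 -0.34 ± 0.04, adjusted p = 1.93e-05).

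Vim encodes vimentin, the filament protein of radial glia, reactive astrocytes, endothelial cells and fibroblasts. It was at 64.7 and 64.2 CPM in MRX-2843 tumor, 1529 and 1566 CPM in vehicle tumor, 36.1 and 36.4 CPM in MRX-2843 naive brain and 41.6 and 42.2 CPM in vehicle naive brain. The order of the groups was that of Gfap, again without overlap. Vim was 36.9-fold higher in vehicle tumor than in vehicle naive brain (log2 5.21 ± 0.05, adjusted p = 1.14e-17) and 24.0-fold lower in MRX-2843 tumor than in vehicle tumor (log2 -4.59 ± 0.05, adjusted p = 2.08e-17). It was 1.78-fold higher in MRX-2843 tumor than in MRX-2843 naive brain (log2 0.83 ± 0.05, adjusted p = 1.75e-08). In naive brain its fall with MRX-2843 was small (log2 -0.21 ± 0.05, adjusted p = 0.00494), and it missed the threshold when the 2 groups were fitted alone (adjusted p = 0.0623).

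The other filament genes moved in both directions. Of the 10 filament genes tested, Gfap and Vim included, 3 rose and 6 fell in vehicle tumor against vehicle naive brain, with a median log2 fold change of -1.93, where 29.3% of all tested genes rose and 30.8% fell. Nes, the nestin gene of neural progenitors, rose with Gfap and Vim (log2 3.22 ± 0.13, adjusted p = 9.39e-12) and fell in MRX-2843 tumor against vehicle tumor (log2 -2.87 ± 0.13, adjusted p = 3.3e-11). The neuronal filament genes Ina, Nefl, Nefm and Nefh fell by 5.57, 5.45, 5.22 and 5.25 on the log2 scale in vehicle tumor (adjusted p = 1.72e-16, 9.13e-17, 5.81e-14 and 3.15e-14). Synm, which encodes a partner of vimentin and Gfap in the filament, fell in vehicle tumor (log2 -0.86, adjusted p = 8.48e-07), as did Prph, the peripherin gene, on 14 and 0 reads in vehicle tumor (log2 -3.01 ± 1.12, adjusted p = 0.0317). Des, the desmin gene of muscle and mural cells, did not pass (log2 0.48 ± 0.37, adjusted p = 0.276).

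The acute-phase genes showed the widest range of the 10. Serpina3n encodes a secreted serine protease inhibitor and is among the most strongly induced genes of reactive astrocytes. It was at 10.5 and 10.1 CPM in MRX-2843 tumor, 2024 and 2019 CPM in vehicle tumor, 11.5 and 10.5 CPM in MRX-2843 naive brain and 11.6 and 10.01 CPM in vehicle naive brain. The vehicle tumor libraries were high, and the other 3 groups overlapped in part: MRX-2843 tumor with both naive groups, and the naive groups with each other. Serpina3n was 187-fold higher in vehicle tumor than in vehicle naive brain (log2 7.55 ± 0.08, adjusted p = 1.16e-17) and 196-fold lower in MRX-2843 tumor than in vehicle tumor (log2 -7.61 ± 0.08, adjusted p = 1.49e-17). Between MRX-2843 tumor and MRX-2843 naive brain the log2 difference was -0.09 ± 0.07 (adjusted p = 0.456), although Gfap and Vim rose in that comparison.

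Lcn2 encodes lipocalin 2, which binds bacterial iron carriers and is secreted by reactive astrocytes and by neutrophils. It had 24 and 68 reads in MRX-2843 tumor, 4702 and 4745 reads in vehicle tumor, 116 and 138 reads in MRX-2843 naive brain and 24 and 2 reads in vehicle naive brain. These are 0.422 and 1.15 CPM in MRX-2843 tumor, 54.4 and 53.8 CPM in vehicle tumor, 2.38 and 1.29 CPM in MRX-2843 naive brain and 0.345 and 0.0298 CPM in vehicle naive brain. Vehicle tumor was high, vehicle naive brain was lowest, and replicates of the other 3 groups differed by a larger ratio than for any other of the 10 genes. Lcn2 was 283-fold higher in vehicle tumor than in vehicle naive brain (log2 8.14 ± 0.47, adjusted p = 7.41e-10), a size that rests on 26 reads in vehicle naive brain and that leaving out single libraries moved between 7.29 and 10.75 on the log2 scale. It was 68.4-fold lower in MRX-2843 tumor than in vehicle tumor (log2 -6.10 ± 0.40, adjusted p = 3.59e-09). In naive brain it was higher with MRX-2843 (log2 3.19 ± 0.55, adjusted p = 0.000596), and without vehicle naive replicate 1 that value was 5.79. Neutrophil marker genes summed to 1.34 CPM at most in any library, 3 of these 6 genes passed the filter on low counts, and Ly6g and Ngp were at 0 in all 4 MRX-2843 libraries.

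**Figure D2:**
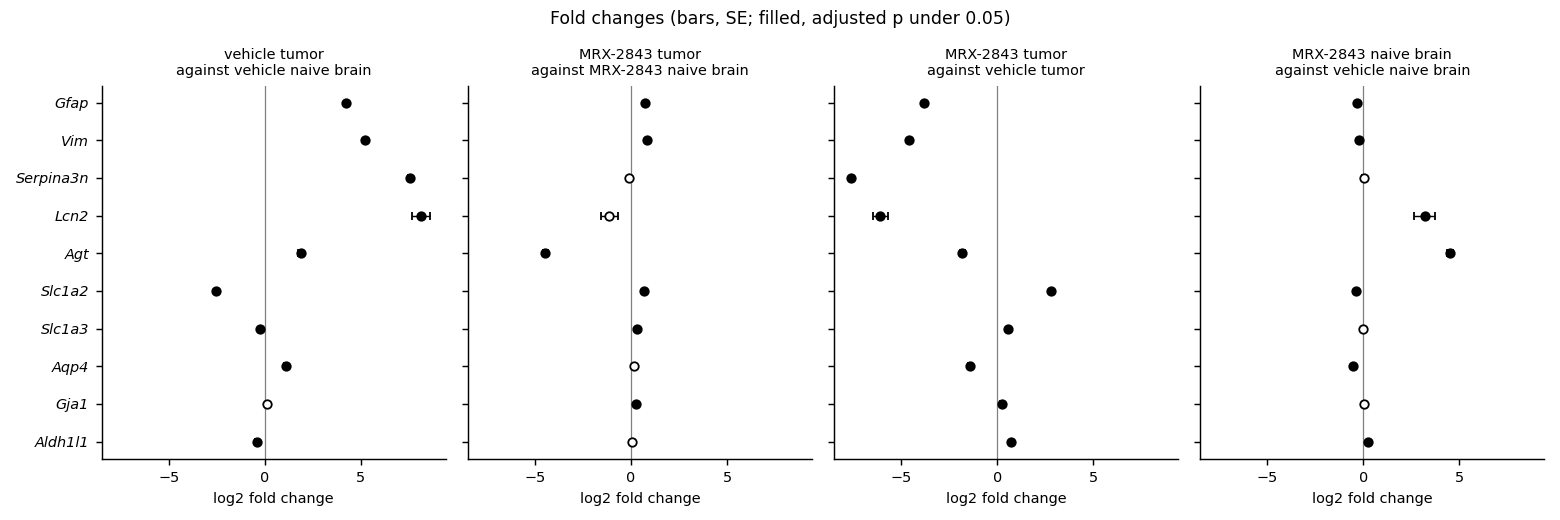
Log2 fold changes (x axis) of the 10 genes (rows) in 4 comparisons, with bars of 1 SE and filled points where the adjusted p was under 0.05. Serpina3n and Lcn2 show the largest changes in both comparisons with vehicle tumor, at 7.55 and 8.14 against vehicle naive brain, and Agt shows the largest changes in both comparisons with MRX-2843 naive brain, at -4.47 and 4.51.

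Both astrocyte glutamate transporter genes were lowest in vehicle tumor and highest in MRX-2843 tumor. Slc1a2 encodes GLT-1, which removes most synaptic glutamate in the forebrain. It was at 1819 and 1722 CPM in MRX-2843 tumor, 246 and 258 CPM in vehicle tumor, 1112 and 1115 CPM in MRX-2843 naive brain and 1474 and 1463 CPM in vehicle naive brain. Vehicle tumor was lowest, and MRX-2843 tumor stood above both naive groups, with no overlap. Slc1a2 was 5.82-fold lower in vehicle tumor than in vehicle naive brain (log2 -2.54 ± 0.04, adjusted p = 7.22e-16) and 7.02-fold higher in MRX-2843 tumor than in vehicle tumor (log2 2.81 ± 0.04, adjusted p = 3.6e-16). It was 1.59-fold higher in MRX-2843 tumor than in MRX-2843 naive brain (log2 0.67 ± 0.04, adjusted p = 4.51e-08) and lower in naive brain with MRX-2843 than with vehicle (log2 -0.40 ± 0.04, adjusted p = 5.67e-06).

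Slc1a3 encodes GLAST, the transporter shared with radial glia and Bergmann glia. It was at 436 and 433 CPM in MRX-2843 tumor, 296 and 299 CPM in vehicle tumor, 342 and 357 CPM in MRX-2843 naive brain and 347 and 355 CPM in vehicle naive brain. The naive groups overlapped, MRX-2843 tumor was highest and vehicle tumor lowest. In vehicle tumor against vehicle naive brain the fall was small (log2 -0.24 ± 0.05, adjusted p = 0.000425) and its direction rested on the scaling, with a log2 value of 0.016 when libraries were scaled by their totals alone. It rose in MRX-2843 tumor against vehicle tumor (log2 0.55 ± 0.05, adjusted p = 7.83e-08) and against MRX-2843 naive brain (log2 0.31 ± 0.05, adjusted p = 0.000167).

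Over all tested genes 29.3% rose and 30.8% fell in vehicle tumor against vehicle naive brain. In the glutamate transporter family, 2 of 6 genes rose and 4 fell there, under the reported scaling. The 2 that rose encode transporters of neutral amino acids: Slc1a5, which carries glutamine, was at 5.40 and 6.56 CPM in MRX-2843 tumor, 136 and 129 CPM in vehicle tumor, 3.77 and 3.48 CPM in MRX-2843 naive brain and 5.07 and 5.08 CPM in vehicle naive brain. Its log2 fold change in vehicle tumor against vehicle naive brain was 4.70 ± 0.11 (adjusted p = 2.04e-14), and that of Slc1a4 was 1.42 ± 0.08 (adjusted p = 3.39e-10). Slc1a1 and Slc1a6, the transporters of neurons, fell by 3.59 and 2.51 on the log2 scale (adjusted p = 4.14e-14 and 1.59e-08). MRX-2843 tumor against vehicle tumor uses the same vehicle tumor libraries, so a reversal there is not separate evidence. All 4 of these genes moved the opposite way in it, Slc1a5 by -4.47, Slc1a4 by -1.47, Slc1a1 by 3.29 and Slc1a6 by 1.83 on the log2 scale. The last passed at an adjusted p of 6.36e-07 and the other three at 2.48e-10 or below.

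Aqp4, a gene of chromosome 18 that encodes the water channel of astrocyte endfeet, was at 64.2 and 59.8 CPM in MRX-2843 tumor, 164 and 170 CPM in vehicle tumor, 49.1 and 60.2 CPM in MRX-2843 naive brain and 80.5 and 76.7 CPM in vehicle naive brain. Vehicle tumor was highest, vehicle naive brain second, and both MRX-2843 groups were lower and overlapped each other. Aqp4 rose in vehicle tumor against vehicle naive brain (log2 1.09 ± 0.08, adjusted p = 2.23e-08). It fell in MRX-2843 tumor against vehicle tumor (log2 -1.43 ± 0.09, adjusted p = 1.09e-09) and in MRX-2843 against vehicle naive brain (log2 -0.52 ± 0.08, adjusted p = 0.000381). Its log2 difference of 0.18 ± 0.09 between MRX-2843 tumor and MRX-2843 naive brain did not pass (adjusted p = 0.165), and without MRX-2843 naive replicate 2 it was 0.33 and passed (adjusted p = 0.00726).

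Gja1 encodes connexin 43, the main gap junction protein of astrocytes. It was at 149 and 140 CPM in MRX-2843 tumor, 128 and 120 CPM in vehicle tumor, 118 and 121 CPM in MRX-2843 naive brain and 118 and 115 CPM in vehicle naive brain. It had the narrowest range of the 10 genes. In vehicle tumor against vehicle naive brain both tumor libraries were higher, with a log2 difference of 0.09 ± 0.06 that did not pass (adjusted p = 0.213) and that was 0.34 under scaling by library totals, where it passed. Its rise in MRX-2843 tumor against vehicle tumor (log2 0.22 ± 0.06, adjusted p = 0.00516) was -0.0037 under that scaling, and it missed the threshold without MRX-2843 tumor replicate 1 or without vehicle tumor replicate 2. Its rise against MRX-2843 naive brain was of like size (log2 0.27 ± 0.06, adjusted p = 0.00347).

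Among 10 connexin and aquaporin genes, Aqp4 and Gja1 included, 3 rose and 4 fell in vehicle tumor against vehicle naive brain, and 6 rose and 3 fell in MRX-2843 tumor against vehicle tumor. Over all tested genes 29.3% rose and 30.8% fell in the first comparison and 30.6% and 29.8% in the second, so the share that changed in the first was near that of all genes. Aqp1, the water channel gene of choroid plexus epithelium, was at 0.176 and 0.371 CPM in MRX-2843 tumor, 165 and 165 CPM in vehicle tumor, 0.123 and 0.469 CPM in MRX-2843 naive brain and 0.574 and 0.521 CPM in vehicle naive brain. In vehicle tumor its level per kilobase was 2.38 and 2.30 times that of Aqp4, against 0.0169 and 0.0161 times in vehicle naive brain. Of 6 choroid plexus marker genes, Aqp1 was the only 1 that rose in vehicle tumor against vehicle naive brain. Ttr and Clic6 fell and 3 were not called. Gjb6, the gene of connexin 30, the second astrocyte connexin, fell in vehicle tumor (log2 -1.07 ± 0.09, adjusted p = 1.09e-07), where Gja1 did not pass, and whether the 2 genes differ in their change was not tested. Gjb1, a connexin gene of oligodendrocytes, fell by 3.72 on the log2 scale (adjusted p = 1.69e-11), beside oligodendrocyte markers that summed to 534 and 554 CPM in vehicle tumor and 7647 and 7587 CPM in vehicle naive brain.

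Aldh1l1 encodes an enzyme of folate metabolism and is a broad marker of astrocytes. It was at 59.8 and 60.0 CPM in MRX-2843 tumor, 37.3 and 35.2 CPM in vehicle tumor, 57.8 and 58.0 CPM in MRX-2843 naive brain and 45.4 and 52.2 CPM in vehicle naive brain. The 2 MRX-2843 groups were close and high, and vehicle tumor was lowest, without overlap. Aldh1l1 fell in vehicle tumor against vehicle naive brain (log2 -0.43 ± 0.08, adjusted p = 0.000333), a call lost under scaling by library totals (log2 -0.17, adjusted p = 0.0886). It rose in MRX-2843 tumor against vehicle tumor (log2 0.72 ± 0.08, adjusted p = 1.75e-06), while between MRX-2843 tumor and MRX-2843 naive brain the log2 difference of 0.05 ± 0.08 did not pass (adjusted p = 0.755). Its rise in MRX-2843 against vehicle naive brain was near the threshold (log2 0.25 ± 0.08, adjusted p = 0.0414) and ranged from 0.15 to 0.35 when single libraries were left out. It missed the threshold without MRX-2843 naive replicate 1 or 2, MRX-2843 tumor replicate 2 or vehicle naive replicate 1.

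Agt followed a course of its own. It encodes angiotensinogen, the precursor of the angiotensin peptides, which in the brain is made mainly by astrocytes and most strongly in hypothalamus, midbrain and brainstem. It was at 5.38 and 5.04 CPM in MRX-2843 tumor, 16.7 and 20.3 CPM in vehicle tumor, 120 and 111 CPM in MRX-2843 naive brain and 5.68 and 4.45 CPM in vehicle naive brain. MRX-2843 naive brain was the high group, vehicle tumor was intermediate, and MRX-2843 tumor and vehicle naive brain overlapped. In naive brain Agt was 22.8-fold higher with MRX-2843 than with vehicle (log2 4.51 ± 0.13, adjusted p = 1.08e-11) and 22.2-fold lower in MRX-2843 tumor than in MRX-2843 naive brain (log2 -4.47 ± 0.14, adjusted p = 3.96e-11). In vehicle tumor it was 3.64-fold higher than in vehicle naive brain (log2 1.86 ± 0.13, adjusted p = 5.81e-09), and in MRX-2843 tumor 3.55-fold lower than in vehicle tumor (log2 -1.83 ± 0.13, adjusted p = 9.07e-09).

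Genes of brain regions also differed between the naive groups, in both directions. These region genes were picked after the values had been seen and are given as values only. The 6 genes Avp, Oxt, Hcrt, Pmch, Nkx2-1 and Slc17a6 were grouped here as hypothalamic, and whether each is confined to that region was not examined. Together they summed to 219 and 204 CPM in MRX-2843 naive brain, against 11.3 and 11.6 CPM in vehicle naive brain. Avp, the vasopressin gene, alone was at 96.3 and 85.2 CPM in MRX-2843 naive brain and at 0.373 and 0.477 CPM in vehicle naive brain. The 3 cortical genes Slc17a7, Tbr1 and Emx1 summed to 166 and 162 CPM in MRX-2843 naive brain, against 1807 and 1783 CPM in vehicle naive brain. The 3 striatal genes Ppp1r1b, Drd1 and Drd2 summed to 763 and 698 CPM in MRX-2843 naive brain and 179 and 183 CPM in vehicle naive brain. Between the naive groups, hypothalamic and striatal genes were thus high and cortical genes low where Agt was high. In both tumor groups the hypothalamic genes were low, at 8.11 and 9.90 CPM in MRX-2843 tumor and 0.555 and 0.805 CPM in vehicle tumor. Cortical genes summed to 825 and 888 CPM in MRX-2843 tumor and 45.3 and 46.0 CPM in vehicle tumor. Striatal genes summed to 735 and 800 CPM in MRX-2843 tumor and 7.09 and 8.52 CPM in vehicle tumor. Agt was at 5.38 and 5.04 CPM in MRX-2843 tumor, and so was low where striatal genes were high. The part of these region genes in the Agt result was not tested, and treatment and the brain region sampled cannot be told apart. In MRX-2843 tumor against MRX-2843 naive brain, cortical and hypothalamic genes differed as well, so tissue label and region sampled cannot be told apart there.

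**Figure D3:**
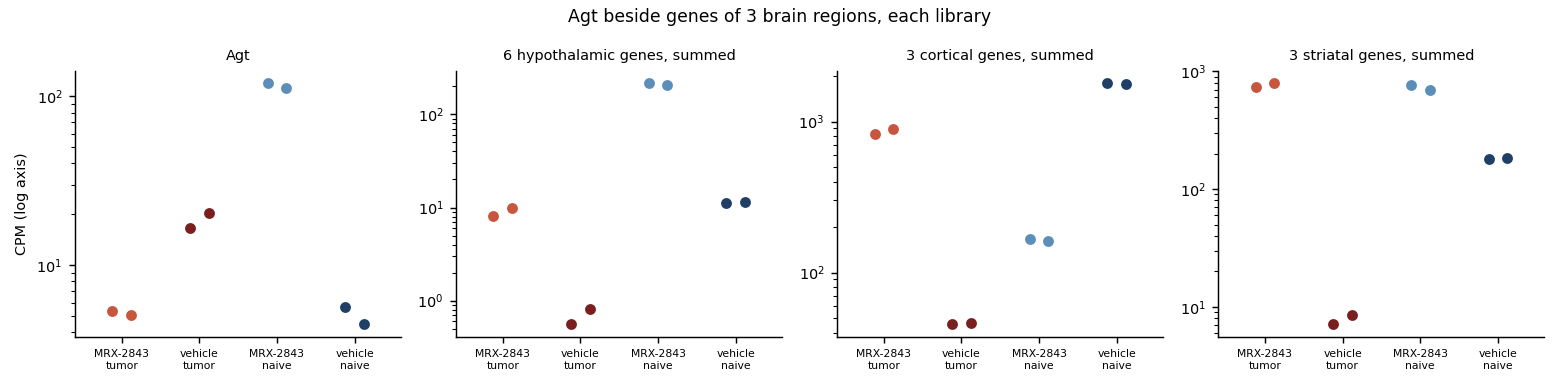
CPM (log axis) of Agt and summed CPM of 6 hypothalamic, 3 cortical and 3 striatal genes in each library, for MRX-2843 tumor, vehicle tumor, MRX-2843 naive brain and vehicle naive brain from left to right. The MRX-2843 naive libraries are highest for Agt (120 and 111 CPM) and for the hypothalamic genes (219 and 204 CPM), while the cortical genes are at 166 and 162 CPM there and at 1807 and 1783 CPM in vehicle naive brain.

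Other genes of the renin-angiotensin system moved in both directions. Of 12 such genes, Agt included, 11 were tested. In MRX-2843 against vehicle naive brain 2 rose and 3 fell, where 9.78% of all tested genes rose and 11.7% fell. In vehicle tumor against vehicle naive brain 5 rose and 2 fell, where 29.3% of all tested genes rose and 30.8% fell. The share that changed in vehicle tumor was near that of all genes. Agtr2, the gene of the type 2 angiotensin receptor, was at 0.246 and 0.405 CPM in MRX-2843 tumor, 7.70 and 9.30 CPM in vehicle tumor, 1.54 and 2.53 CPM in MRX-2843 naive brain and 0.804 and 0.715 CPM in vehicle naive brain. It rose in both of the comparisons in which Agt rose, by 3.48 ± 0.37 in vehicle tumor against vehicle naive brain (log2, adjusted p = 9.16e-07) and by 1.43 in MRX-2843 against vehicle naive brain (adjusted p = 0.00938). Mas1, the gene of a receptor for angiotensin fragments, had the opposite directions, with log2 values of -5.71 ± 0.21 and -1.54 (adjusted p = 3.66e-12 and 5.8e-06). Anpep, which encodes an aminopeptidase that trims angiotensin peptides, rose in vehicle tumor against vehicle naive brain (log2 2.54 ± 0.18, adjusted p = 8.1e-09), and its naive groups did not pass (adjusted p = 0.057). Ren1, the renin gene, had at most 0.227 CPM in any library, so that no difference was detectable at this depth.

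The wider reactive programmes were high in vehicle tumor as well. Over all tested genes 29.3% rose and 30.8% fell in vehicle tumor against vehicle naive brain. In MRX-2843 tumor against vehicle tumor these shares were 30.6% and 29.8%. A list of 13 pan-reactive genes, of which 4 are Gfap, Vim, Serpina3n and Lcn2, had all 13 higher in vehicle tumor than in vehicle naive brain, with a median log2 fold change of 4.64 against -0.03 over all tested genes, and all 13 lower in MRX-2843 than in vehicle tumor, with a median of -5.05. Aspg, an asparaginase gene of that list, was at 4.91 and 6.59 CPM in MRX-2843 tumor, 253 and 242 CPM in vehicle tumor, 3.61 and 3.40 CPM in MRX-2843 naive brain and 6.50 and 6.27 CPM in vehicle naive brain. Of 12 genes linked to inflammatory-type reactive astrocytes, 11 rose and 1 fell in vehicle tumor against vehicle naive brain, with a median of 5.06. The complement gene C3 rose most, by 10.77 ± 0.20 (adjusted p = 1.73e-15) over 4 and 14 reads in vehicle naive brain, and the cell adhesion gene Amigo2 fell by 1.32 on the log2 scale (adjusted p = 0.000109). Of 12 genes linked to injury-type reactive astrocytes, 10 rose and none fell, with a median of 3.54, among them Tm4sf1, Emp1, Cd14 and Ptx3 at 3.54, 5.79, 3.54 and 5.86 (adjusted p = 4.87e-14, 5.29e-12, 2.18e-09 and 8.55e-09). Relative to vehicle tumor, MRX-2843 tumor had 1 inflammatory-type gene that rose and 11 that fell, and 11 injury-type genes that fell and none that rose.

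Between MRX-2843 tumor and MRX-2843 naive brain, where 12.4% of all tested genes rose and 11.9% fell, genes of these lists moved in both directions. Of the 13 pan-reactive genes 4 rose and 2 fell, with a median of 0.10, of the 12 inflammatory-type genes 5 rose and 1 fell, with a median of 0.38, and of the 12 injury-type genes 4 rose and 2 fell, with a median of 0.27. C3 rose in that comparison too, by 3.32 ± 0.19 on the log2 scale (adjusted p = 1.47e-08), at 6.05 and 7.77 CPM in MRX-2843 tumor against 0.800 and 0.637 CPM in MRX-2843 naive brain. H2-D1, a major histocompatibility gene with close relatives whose reads may be shared, rose by 0.66 ± 0.07 (adjusted p = 6.78e-06), and Iigp1, an interferon-induced GTPase gene, by 1.38 ± 0.12 (adjusted p = 1.17e-06).

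Many of the genes in these lists are also expressed by immune, vascular and mesenchymal cells. Markers of those cells moved with them: microglia and macrophage markers summed to 269 and 277 CPM in MRX-2843 tumor, 1630 and 1655 CPM in vehicle tumor, 218 and 215 CPM in MRX-2843 naive brain and 206 and 207 CPM in vehicle naive brain. All 8 of these markers rose in vehicle tumor against vehicle naive brain, where 29.3% of all tested genes rose and 30.8% fell. Mural and fibroblast markers, of which 6 of 8 rose and 1 fell, summed to 178 and 164 CPM in MRX-2843 tumor, 8619 and 8718 CPM in vehicle tumor, 163 and 161 CPM in MRX-2843 naive brain and 176 and 176 CPM in vehicle naive brain. Endothelial markers, of which 7 of 7 rose, summed to 156 and 164 CPM in MRX-2843 tumor, 579 and 570 CPM in vehicle tumor, 164 and 163 CPM in MRX-2843 naive brain and 151 and 156 CPM in vehicle naive brain. Radial glia and progenitor markers, of which 8 of 9 rose and 1 fell, summed to 150 and 158 CPM in MRX-2843 tumor, 451 and 461 CPM in vehicle tumor, 118 and 126 CPM in MRX-2843 naive brain and 122 and 116 CPM in vehicle naive brain. Of 6 oligodendrocyte precursor markers, 5 rose and 1 fell in vehicle tumor against vehicle naive brain. They summed to 860 and 878 CPM in vehicle tumor and 241 and 251 CPM in MRX-2843 tumor. In naive brain they summed to 187 and 178 CPM with MRX-2843 and 159 and 157 CPM with vehicle. None of these markers was at 0 in both libraries of a group. The part of these cells in the changes of Gfap, Vim, Serpina3n, Lcn2, the reactive lists and the regulators described next was not tested. Nor was that of the tumor cells, which can themselves express Gfap and Vim.

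Regulators of the reactive state rose with the reactive genes. Of 12 such genes, 11 rose and 1 fell in vehicle tumor against vehicle naive brain, with a median of 1.96. Osmr is also on the pan-reactive list, so both counts share it. Over all tested genes 29.3% rose and 30.8% fell. In MRX-2843 tumor against vehicle tumor 1 of the 12 rose and 10 fell, with a median of -1.90. There 30.6% of all tested genes rose and 29.8% fell. Stat3, which relays signals of the interleukin 6 receptor family to genes such as Gfap, was at 47.8 and 42.4 CPM in MRX-2843 tumor, 211 and 228 CPM in vehicle tumor, 44.1 and 38.0 CPM in MRX-2843 naive brain and 40.3 and 40.1 CPM in vehicle naive brain. Its log2 fold change in vehicle tumor against vehicle naive brain was 2.45 ± 0.08 (adjusted p = 1.58e-12). Socs3, a feedback inhibitor that STAT3 induces, rose by 4.93 (adjusted p = 1.37e-11). The receptor genes Osmr, Il6st and Lifr rose by 4.28, 1.97 and 1.95 (adjusted p = 3.74e-10, 3.33e-12 and 1.62e-11). Nfkb1, the gene of an NF-kB subunit, rose by 2.48 (adjusted p = 4.19e-12), and Nfia and Nfib, genes of the NFI factors, by 1.88 and 1.05 (adjusted p = 7.17e-11 and 6.61e-09). The regulator that fell was Hes5, a Notch target gene of neural progenitors, with 9.07 and 10.8 CPM in MRX-2843 tumor, 1.06 and 1.27 CPM in vehicle tumor, 10.99 and 13.3 CPM in MRX-2843 naive brain and 9.52 and 9.09 CPM in vehicle naive brain.

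**Figure D4:**
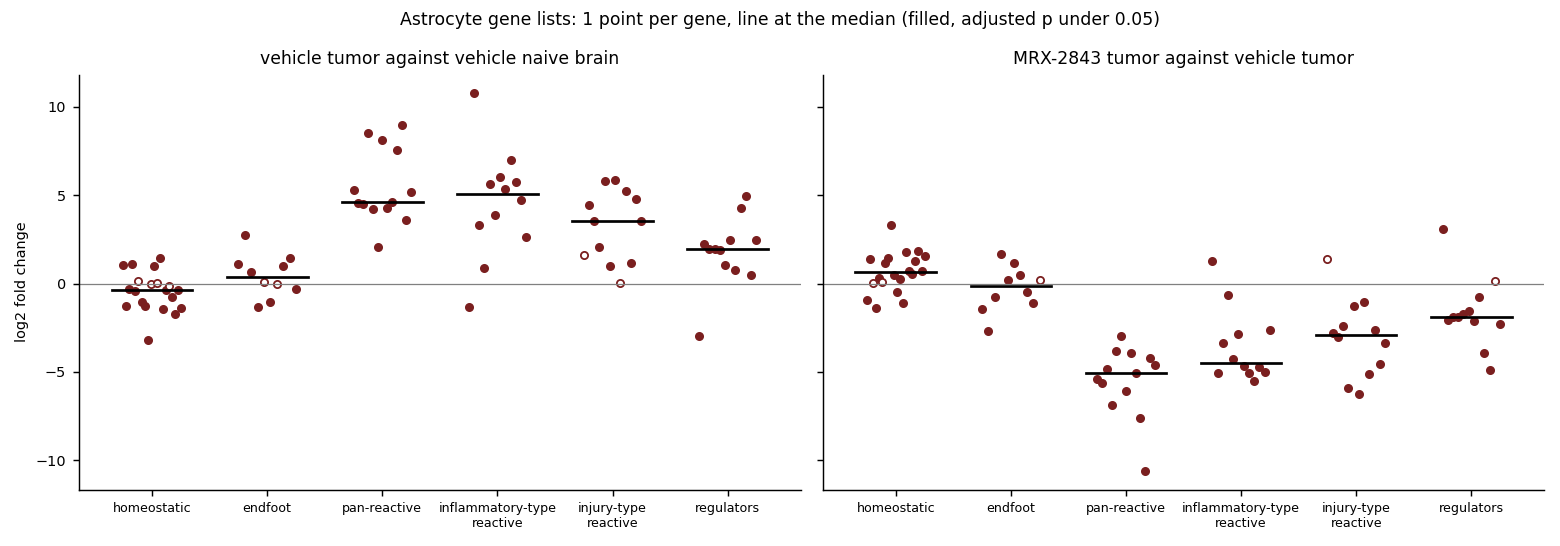
Log2 fold changes (y axis) of the genes of 6 astrocyte lists in vehicle tumor against vehicle naive brain (left) and MRX-2843 tumor against vehicle tumor (right), 1 point per gene, filled where the adjusted p was under 0.05, with a line at the median. The 3 reactive lists have medians of 4.64, 5.06 and 3.54 on the left and -5.05, -4.47 and -2.91 on the right, while the homeostatic and endfoot medians lie between -0.38 and 0.63.

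The homeostatic genes moved in both directions. Of 20 further homeostatic astrocyte genes, 4 rose and 12 fell in vehicle tumor against vehicle naive brain, with a median log2 fold change of -0.38. Under scaling by library totals 7 of them rose. Over all tested genes 29.3% rose and 30.8% fell under the reported scaling. Glul, which encodes the enzyme that turns glutamate into glutamine, fell by 1.25 on the log2 scale (adjusted p = 5.39e-13). Aldoc, a glycolytic enzyme gene, Ntsr2, a neurotensin receptor gene, and Slc6a11, a GABA transporter gene, fell by 1.26, 1.43 and 1.70 (adjusted p = 1.24e-12, 8.53e-12 and 2.79e-11). In contrast Mlc1, a membrane protein gene of endfeet, Atp1b2, a sodium pump subunit gene, Acsbg1, a lipid enzyme gene, and Kcnj10, a potassium channel gene, rose by 1.43, 1.13, 1.03 and 1.00 (adjusted p = 2.08e-12, 2.07e-11, 4.94e-10 and 1.27e-09). These 8 genes were named for the smallest adjusted p in each direction in vehicle tumor against vehicle naive brain. The next comparison shares its vehicle tumor libraries, so a reversal is not separate evidence. Each of the 8 genes moved the opposite way in MRX-2843 tumor against vehicle tumor, where 14 of the 20 rose and 4 fell. There 30.6% of all tested genes rose and 29.8% fell. In MRX-2843 tumor against MRX-2843 naive brain 6 of the 20 rose and 7 fell, with a median of -0.07. The shares of all tested genes were 12.4% and 11.9%.

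Endfoot genes moved in both directions. Of 10 such genes, Aqp4, Gja1 and 4 homeostatic genes included, 5 rose and 3 fell in vehicle tumor against vehicle naive brain, where 29.3% of all tested genes rose and 30.8% fell, with a median of 0.37. Dag1, whose product dystroglycan ties the endfoot to the vessel wall, rose by 2.75 ± 0.06 (adjusted p = 9.34e-15), whereas Dtna, which encodes a dystrophin-associated protein that helps to hold AQP4 in place, fell by 1.32 on the log2 scale (adjusted p = 9.26e-11). Relative to the same vehicle tumor libraries, in MRX-2843 tumor Dag1 fell by 2.67 and Dtna rose by 1.69 on the log2 scale (adjusted p = 1.5e-14 and 5.68e-12).

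MRX-2843 naive brain differed from vehicle naive brain beyond Agt and Lcn2. Cortical, hypothalamic and striatal genes differed between these groups too, as given above. For the genes below as well, treatment and the brain region sampled cannot be told apart. Of the 20 homeostatic genes 11 rose and 2 fell, with a median of 0.20, against 9.78% and 11.7% of all tested genes. The largest of the named rises was that of Slc6a11, at 251 and 217 CPM in MRX-2843 naive brain and 105 and 99.5 CPM in vehicle naive brain (log2 1.19 ± 0.07, adjusted p = 2.25e-08). Glul fell with MRX-2843 in naive brain (log2 -0.28 ± 0.04, adjusted p = 0.000105). Of the 13 pan-reactive genes 1 rose and 5 fell, and the gene that rose was Lcn2. Serpina3n, Slc1a3 and Gja1 had log2 differences of 0.02, -0.00 and 0.04 with adjusted p = 0.898, 0.989 and 0.766, and their libraries overlapped between the naive groups.

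Levels within a library were compared per kilobase of exon. Serpina3n took 47.4% and 46.8% of the summed level of the 10 genes in vehicle tumor, and 1.71% to 2.35% in the other 6 libraries. Slc1a2 took 47.1% and 46.0% in MRX-2843 tumor, 0.906% and 0.941% in vehicle tumor, 32.4% and 32.7% with MRX-2843 in naive brain and 47.0% and 46.8% with vehicle in naive brain, and was the leading gene of the 10 outside vehicle tumor. The level of Gfap was 0.323 and 0.344 times that of Slc1a2 in MRX-2843 tumor, 33.9 and 33.0 times in vehicle tumor, 0.318 and 0.314 times in MRX-2843 naive brain and 0.302 and 0.306 times in vehicle naive brain. Vehicle tumor thus had the reverse order of these 2 genes, and the other 3 groups were close. Slc1a2 was 2.71 and 2.59 times Slc1a3 in MRX-2843 tumor, 0.541 and 0.561 times in vehicle tumor, 2.11 and 2.03 times in MRX-2843 naive brain and 2.76 and 2.68 times in vehicle naive brain. Agt took 24.3% and 22.7% of the sum in MRX-2843 naive brain and ranked second there, behind Slc1a2.

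**Figure D5:**
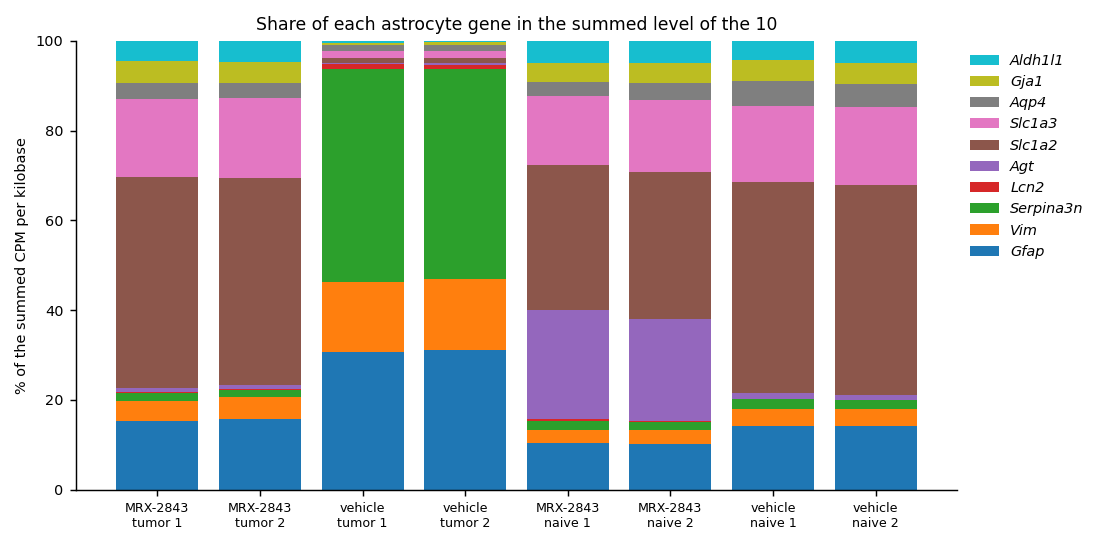
Share (%) of each of the 10 genes in their summed CPM per kilobase, 1 stacked bar per library, for MRX-2843 tumor, vehicle tumor, MRX-2843 naive brain and vehicle naive brain from left to right. Serpina3n fills 47.4% and 46.8% of the vehicle tumor bars, Slc1a2 leads the other 6, and Agt takes 24.3% and 22.7% in MRX-2843 naive brain.

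The genes whose log2 CPM followed these patterns most closely were ranked by Pearson's r over the 8 libraries, among genes with a mean log2 CPM of at least 4. For Gfap they were Gsn, an actin-severing protein gene, Esam, an endothelial adhesion gene, and Vim, with r of 0.9998, 0.9996 and 0.9994. For Slc1a2 they were Drp2, Car2 and Gria2, each with r of 0.9996, of which Gria2 encodes a glutamate receptor subunit of neurons and Car2 a carbonic anhydrase. For Agt they were Als2cl, Plppr3 and Dlg5, with r of 0.976, 0.968 and 0.962. Pearson's r takes no account of the size of a change. Als2cl was at 24.5 and 23.8 CPM in MRX-2843 naive brain and 16.8 and 17.0 CPM in vehicle naive brain. Its step was far smaller than that of Agt, as were those of Plppr3 and Dlg5. Esam was at 48.9 and 49.5 CPM in vehicle tumor and 22.6 and 22.3 CPM in vehicle naive brain. It changed far less than Gfap, while Gsn and Vim changed more. The libraries form 4 tight groups, so r rests on few distinct points, and for Gfap and Slc1a2 mostly on the distance of vehicle tumor from the rest.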

How the data were processed

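Read counts per gene were the deposited values: whole numbers for 55414 genes in 8 libraries of mouse brain tumor and naive brain. The authors extracted RNA with a GenCatch kit and had libraries made by an outside company, per the labels' protocols. Per the submitters' processing notes, featureCounts of Subread, SAMtools and STAR 2.7.7a were used, along with mm10 and hg38, but no step or role is stated. The strand setting is not given in the sources used here, so reads of overlapping and antisense genes cannot be told apart.

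Modelling used edgeR 4.0.16 (R 4.3.3). Genes were kept by filterByExpr with groups given (minimum count 10, 24356 genes), libraries were scaled by TMM, and 4 group means were fitted by quasi-likelihood over all 8 libraries with 4 residual degrees of freedom, with Benjamini-Hochberg adjustment over all genes tested. The common biological coefficient of variation was 21.0%. Standard errors were obtained by dividing the size of the log2 fold change by the root of its F statistic. CPM are over TMM-scaled totals. The fitting was tested on simulated data. Alternatives were DESeq2 1.42.0 as test or for size factors, library totals, 2 other filters, a replicate block, the 2 groups alone, fits without both MRX-2843 tumor libraries or without mitochondrially encoded genes, and each library left out.

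Coordinates and exon lengths came from GENCODE M21, which held 94.1% of the gene identifiers without version, and promoters from RefSeq GRCm38.p6. Python 3.11.15, pandas 2.3.3, NumPy 2.4.6 and matplotlib 3.10.9 made tables and plots. The 10 genes and the lists were chosen with earlier results of these data known. Every one of the 10 is described in each comparison; from each other list, up to 4 genes that rose and 4 that fell with the smallest adjusted p in vehicle tumor against vehicle naive brain may be named, and any gene of the filament, transporter, connexin and aquaporin, renin-angiotensin and regulator lists. Region genes, Mki67 and Ddx3y, chosen after their values were seen, are outside that rule. Replicates of a group differed by more than counting noise (chi-square over degrees of freedom 9.23 to 18.8), so none was merged. Some genes of the connexin and aquaporin list and of the region genes are not reported here.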

Additional observations from a re-analysis of the deposited data

Results flagged for a closer look

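For 9 of the 10 genes the difference between tumor and naive brain was itself different under MRX-2843 and under vehicle, by the interaction term of edgeR's quasi-likelihood fit (51.6% of all tested genes passed, 26.3% higher and 25.3% lower). The contrast takes MRX-2843 tumor minus MRX-2843 naive brain, less vehicle tumor minus vehicle naive brain. It was -7.64 for Serpina3n (log2, -0.09 with MRX-2843 and 7.55 with vehicle), -4.38 for Vim (0.83 and 5.21) and -3.49 for Gfap (0.75 and 4.24). Lcn2 had -9.29 (-1.14, which did not pass, and 8.14). Agt had -6.34 (-4.47 and 1.86), with tumor below naive brain under MRX-2843 and above it under vehicle, both past the threshold. Slc1a2 had 3.21 (0.67 and -2.54), Slc1a3 0.55 (0.31 and -0.24), Aldh1l1 0.48 (0.05 and -0.43, adjusted p = 0.00276) and Aqp4 -0.91 (0.18 and 1.09). Gja1, with 0.18, did not pass (adjusted p = 0.0843). The Agt value rests on the high level in MRX-2843 naive brain, beside which hypothalamic genes were also high. Cortical genes also differed between MRX-2843 tumor and MRX-2843 naive brain. Oligodendrocyte markers summed to 14513 and 14971 CPM in MRX-2843 tumor and 7748 and 7689 CPM in MRX-2843 naive brain. The part of the tissue sampled in these interaction values was not tested.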

How the results depend on the processing

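Of 810 values of the 10 genes recomputed under 17 alternatives, 777 kept their direction and their side of the threshold. All 243 counts over all genes and 934 of 972 list counts stayed within 1.5 times. Scaling by library totals moved the median of all genes by 0.24 in vehicle tumor against vehicle naive brain, -0.21 in MRX-2843 tumor against vehicle tumor and -0.22 in the interaction. Under it Slc1a3 turned to 0.016, Aldh1l1 no longer passed (-0.17) and Gja1 passed (0.34) in vehicle tumor against vehicle naive brain, Gja1 turned to -0.0037 in MRX-2843 tumor against vehicle tumor, and in the interaction Gja1 turned to -0.034 and Aldh1l1 no longer passed (0.26). The rise of Aldh1l1 with MRX-2843 in naive brain no longer passed with DESeq2 size factors (0.23), library totals (0.24), DESeq2 as the test (0.23) or without both MRX-2843 tumor libraries (0.24). In that comparison Serpina3n, which was not called, turned to -0.00051 with DESeq2 size factors and -0.0058 with DESeq2, and Vim no longer passed with the 2 groups alone (-0.22). Lcn2 passed without a filter in MRX-2843 tumor against MRX-2843 naive brain (-1.14), and Gja1 passed in the interaction (0.21) with a filter of CPM of at least 1 in 2 libraries, where 5 endfoot genes were higher.

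List counts moved as follows. In vehicle tumor against vehicle naive brain 7 homeostatic genes rose with library totals. In MRX-2843 tumor against MRX-2843 naive brain 4 homeostatic genes fell with DESeq2 size factors and 3 with library totals, 0 endfoot genes fell with library totals and with DESeq2 (1 in the reported fit), 8 inflammatory-type genes rose with DESeq2, 4 pan-reactive genes fell without a filter, and 2 injury-type genes rose with the 2 groups alone. With the 2 groups alone 1 injury-type gene rose in MRX-2843 tumor against vehicle tumor, and 2 inflammatory-type genes rose in MRX-2843 against vehicle naive brain, where 2 pan-reactive genes rose without a filter. The cause of these moves was not tested.

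Leaving out each library in turn, with the lone library of its group assumed to vary like the others, gave these ranges. In MRX-2843 tumor against MRX-2843 naive brain Lcn2 ranged from -2.03 to -0.60 and passed when any 1 of 6 libraries was left out, and Aqp4 ranged from 0.040 to 0.33. There 3 to 7 homeostatic genes, 2 to 4 pan-reactive genes and 0 to 1 endfoot genes fell, and 2 to 4 injury-type genes and 3 to 6 regulators rose. In MRX-2843 tumor against vehicle tumor Gja1 ranged from 0.17 to 0.26. In MRX-2843 against vehicle naive brain Vim ranged from -0.22 to -0.20 and missed the threshold without vehicle naive replicate 2, Aldh1l1 from 0.15 to 0.35, Serpina3n from -0.077 to 0.13 and Slc1a3 from -0.036 to 0.026. There 1 to 4 pan-reactive, 1 to 2 endfoot and 0 to 2 regulator genes rose, and 0 to 1 inflammatory-type, 1 to 2 injury-type and 3 to 5 regulator genes fell. In the interaction 1 to 2 regulators were higher.

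The replicate numbers pair no libraries by the labels, and the deviations of same-numbered libraries from their group means correlated at -0.0902 to -0.0411 over 12636 genes. With the replicate block no call on the 10 genes changed, and the homeostatic genes that fell in MRX-2843 tumor against MRX-2843 naive brain numbered 4. Depth limits Lcn2 outside vehicle tumor, where 2 to 138 reads stand behind each value.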
